A study of Mus musculus with 15 samples.

Results

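The claudin genes examined here are 7 members of the family, Cldn1, Cldn2, Cldn3, Cldn4, Cldn6, Cldn7 and Cldn12, chosen by gene symbol as claudins of the biliary tight junction. All 7 were found among the 24421 gene symbols of the deposited tables, which hold 24 further claudin symbols. The samples were an established C57BL/6 mouse line from the bile ducts of adult animals with the genotype ITR-CreERT2;Klf5flox/flox, that is, a Cre recombinase that tamoxifen switches on and loxP-flanked copies of the gene for Klf5, a DNA-binding factor of the Krüppel-like family. The labels do not spell out ITR or name the promoter that drives the recombinase. One arm received 4-OH tamoxifen, which activates the recombinase, and the other its ethanol solvent (EtOH control). The 12 h time point has 3 libraries from ethanol and 4 from tamoxifen, and the 24 h time point has 4 of each, 15 in all. All groups carry the floxed alleles and the recombinase, so the loss of Klf5 cannot be told apart from tamoxifen or Cre activity itself. The series title names structures grown in vitro and its design text structures in vivo, and the growth form sampled is not settled by them. It is not stated whether replicates were separate cultures, and the p-values then measure only how far these libraries spread, which may be technical.

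Claudins are membrane-spanning proteins that join neighbouring epithelial cells at the tight junction and set which ions, water and solutes pass between the cells. Some members seal this paracellular route and others form channels in it, so the mixture of claudins that a cell makes shapes how leaky its epithelium is. In the bile duct the tight junction keeps bile apart from the surrounding tissue, and in humans the inherited loss of claudin-1 causes a disease of the bile ducts. Most claudins bind the zonula occludens scaffold proteins, such as ZO-1, encoded by Tjp1, through their carboxy-terminal end.

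Each table compares the arms at 1 time and gives a mean over all libraries of that time, with no value per library. The mean library held 13.9 M normalised counts at 12 h and 11.8 M at 24 h in the authors' deposited tables. The targeted gene Klf5 stood at 40.9% of its ethanol level at 12 h (log2 fold -1.29, SE 0.23) and at 30.4% at 24 h (log2 fold -1.72, SE 0.08) in the authors' deposited tables. The label of a biliary line was compared with cell type markers. Of 13 biliary epithelial markers, the keratin genes Krt8, Krt18 and Krt19 and the osteopontin gene Spp1 had means between 6699.7 and 48237 normalised counts over the 2 times in the authors' deposited tables. The same tables gave low means for Epcam (15.7 at 12 h and 9.56 at 24 h), Cftr (2.25 and 12.7) and Onecut1 (3.55 and 3.22). Of 7 fibroblast, 6 endothelial and 7 immune markers, 6, 6 and 6 had means under 10 normalised counts at either time, the exceptions being Col1a1 and Cd68. Of 9 hepatocyte markers, Cyp2e1 and Cyp3a11 were at 0 at both times and the albumin gene Alb had means of 3.68 and 1.48 in the authors' deposited tables. The means there were high for the apolipoprotein gene Apob (11906 and 27449.7), and Apoa1 (1291 and 448) and the transthyretin gene Ttr (685 and 267) were also present. Apob rose at 24 h, by 0.32 on the log2 scale (SE 0.09; adjusted p = 0.00538, Wald test) in the authors' deposited table. At 12 h its log2 fold was 0.72 (SE 0.51) in the authors' deposited table and was not called. The summed level of the hepatocyte list, most of it Apob, was 10514 in ethanol and 16434 in tamoxifen at 12 h, and 25159.7 and 31188 at 24 h. Its part in the claudin results was not tested.

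The members lie on 5 chromosomes of GRCm38. Cldn4 (chromosome 5, 134945119 to 134946934, reverse strand) and Cldn3 (chromosome 5, 134986214 to 134987472, forward strand) are single-exon neighbours with a gap of 39.28 kb. Cldn12 is on the same chromosome, from 5489537 to 5514958 on the reverse strand. Cldn2 lies on chromosome X (139800828 to 139811386, forward), Cldn6 on chromosome 17 (23679249 to 23682446, forward), Cldn7 on chromosome 11 (69964779 to 69967885, forward) and Cldn1 on chromosome 16 (26356642 to 26371841, reverse). The end of Cldn6 is 138 bases from that of Cldn9. In annotated transcripts, 0 of the 50-base stretches of any member occurred in a transcript of another gene, so reads of that length would not be shared within the family. The library kit does not mark the strand, and 40 bases of the Cldn3 exon (3.18%) overlap an exon of Wbscr25 on the opposite strand. No other member had exon bases in common with another gene.

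Cldn2 and Cldn4 were the members called in the comparison at 24 h, in opposite directions, and the 250 bases before their RefSeq start sites are shown for comparison with each other and with known Klf motifs. Capitals mark 2 motifs to which Krüppel-like factors are known to bind, CACCC and GGGCGG, searched on both strands (GGGTG and CCGCCC on the other strand), with overlapping matches counted. The stretches are from RefSeq on GRCm38.p6, 5′ to 3′ on the strand of the gene, chrX:139800558-139800807 (forward) for Cldn2 and chr5:134946935-134947184 (reverse) for Cldn4.
Cldn2: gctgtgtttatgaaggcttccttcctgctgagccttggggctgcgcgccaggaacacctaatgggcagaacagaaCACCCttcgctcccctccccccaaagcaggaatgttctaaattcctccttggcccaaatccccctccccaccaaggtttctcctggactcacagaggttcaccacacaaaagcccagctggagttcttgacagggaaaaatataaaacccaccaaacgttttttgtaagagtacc
Cldn4: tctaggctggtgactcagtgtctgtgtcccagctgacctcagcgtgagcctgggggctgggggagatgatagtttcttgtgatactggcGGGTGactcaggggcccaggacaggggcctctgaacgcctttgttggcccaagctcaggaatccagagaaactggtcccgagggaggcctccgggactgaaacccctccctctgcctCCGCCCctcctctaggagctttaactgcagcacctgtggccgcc
The stretch before Cldn2 holds 1 CACCC and no GGGCGG, and that before Cldn4 holds 1 of each. All 7 members matched an entry in the promoter table, with 10 start sites among them. Of these 10 stretches 5 held CACCC and 7 held GGGCGG, against 52.0% and 32.7% of the 32851 stretches of that length in the table. Counted by gene, 5 and 6 of the 7 members held the motifs in at least 1 stretch. No share by gene was computed over all genes, so these counts have no yardstick here. Cldn7 and Cldn12 have more than 1 start site and so more chances to match. The 3 stretches of Cldn12 overlap, and 1 GGGCGG match there is counted in 2 of them. These are matches of letters and not binding sites. No binding data were examined.

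The members differed widely in level, and 3 of them made up nearly all of the claudin RNA. On the scale of mean normalised counts per kb of exon, Cldn6 was highest at 12 h with 4415, followed by Cldn2 with 2769 and Cldn12 with 283. Cldn4 with 34.4 and Cldn3 with 9.90 counts per kb came next. Cldn7 with 0.572 and Cldn1 with 0.331 counts per kb were lowest. At 24 h the order on the same scale was the same for the first 5 members, with Cldn6 at 2440.3, Cldn2 at 1358, Cldn12 at 591, Cldn4 at 6.38 and Cldn3 at 2.68 counts per kb. Cldn1 (0.185) and Cldn7 (0.126) again had the lowest levels per kb and changed places. The first place of Cldn6 depends on the division by length. Before it, Cldn2 was above Cldn6 at both times in the authors' deposited tables. Their mean normalised counts were 9207 and 7598 at 12 h, and 4517 and 4200 at 24 h. Cldn6, Cldn2 and Cldn12 together held 99.4% of the summed level per kb of the members at 12 h and 99.8% at 24 h. The tables give no spread per library around these levels, so neighbours in the order were not tested against each other, and the order of Cldn1 and Cldn7 rests on a few reads.

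**Figure D1:**
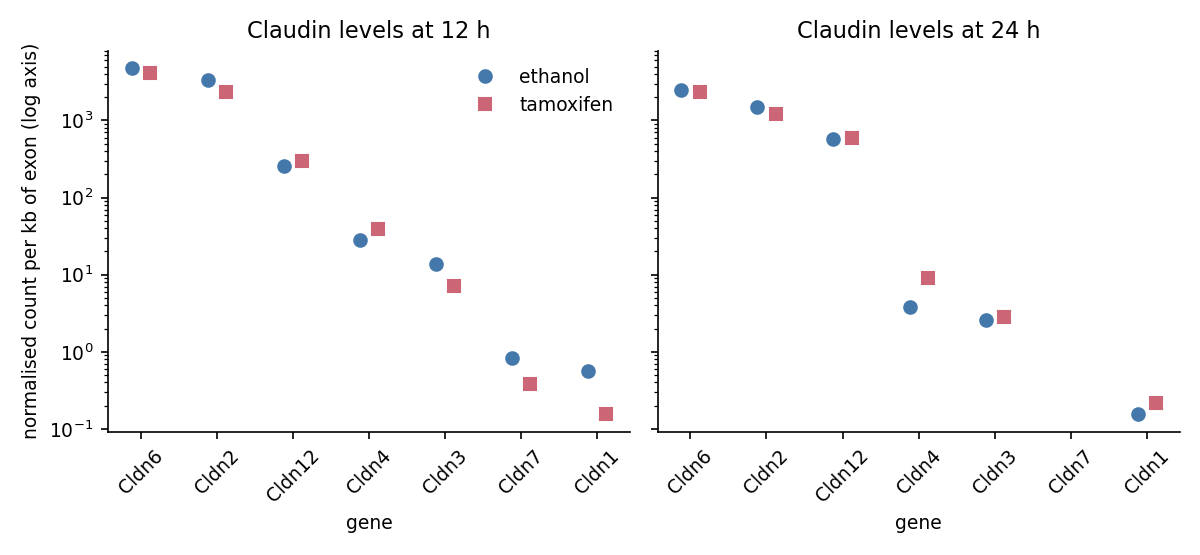
Level of each claudin in ethanol (circles) and tamoxifen (squares) at 12 h and 24 h, in normalised counts per kb of exon on a log axis, solved from the authors' mean and fold. Cldn6, Cldn2 and Cldn12 stand apart from the other 4 members at both times. Cldn7 at 24 h, with 2 reads in all, is not drawn.

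Cldn6, the highest member per kb, is known from embryonic epithelia and is low in most adult epithelia. Cldn2 forms a channel for cations and water and is known from leaky epithelia such as the proximal tubule of the kidney. Cldn12 is an atypical claudin that lacks the usual carboxy-terminal ZO-binding motif. Cldn1, Cldn3, Cldn4 and Cldn7 are generally described as barrier-forming, although claudin-4 and claudin-7 have also been described as anion channels in some kidney cells. The members outside this selection added little: all 7 members held 99.8% of the normalised counts of the 31 claudin symbols at 12 h and 99.6% at 24 h. Of those 31 symbols, 17 were at 0 at both times. The highest of the other listed claudins in the authors' deposited tables were Cldn18, with means of 15.5 at 12 h and 12.7 at 24 h, and Cldn23, with means of 9.90 and 11.1. The list holds none of the Cldn34 genes, of which Cldn34c1 had means of 12.8 and 6.53 in the same tables and the others were at 0. Cldnd1, a claudin-domain gene outside the Cldn series, had means of 719.7 and 1329 in the authors' deposited tables.

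The low members could be followed in single libraries, because the mean of a gene with few reads matches exactly 1 set of whole reads per library. These libraries were not assigned to ethanol or tamoxifen, and the sets enter no comparison between the arms. Cldn1 had 11 reads at 12 h, with 0, 0, 0, 1, 2, 2 and 6 in the 7 libraries, and 1 library held 54.5% of them. At 24 h Cldn1 had 7 reads, with 0 in 3 of the 8 libraries and no more than 3 in any. Cldn7 had 8 reads at 12 h, with 0, 0, 0, 1, 1, 2 and 4 per library, and 2 reads at 24 h, 1 in each of 2 libraries. A total of 3 reads corresponds to a mean of 0.410 to 0.449 normalised counts at 12 h and 0.352 to 0.401 at 24 h, so the mean of Cldn7 at 24 h, 0.245 in the authors' deposited table, lies under that floor. Both genes were therefore at the edge of detection at this depth in libraries of a line labelled biliary. Epcam, which encodes a membrane protein known to bind claudin-7 and claudin-1, was also low, with the means given above.

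Cldn3 was detected in every library. It had 6, 6, 9, 11, 13, 17 and 25 reads in the 7 libraries at 12 h, and between 2 and 6 reads, with a median of 3, in the 8 libraries at 24 h. Cldn4 at 24 h had 93 reads, with 5, 6, 7, 10, 12, 14, 16 and 23 per library, so that 24.7% of them came from the highest library. In sorted order the widest gap between libraries, 7 reads, lies just under the highest one. The sorted reads alone do not show which libraries belong to which arm or how far the arms overlap. At 12 h the mean of Cldn4, 62.4 normalised counts in the authors' deposited table, was too high for a unique set.

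**Figure D2:**
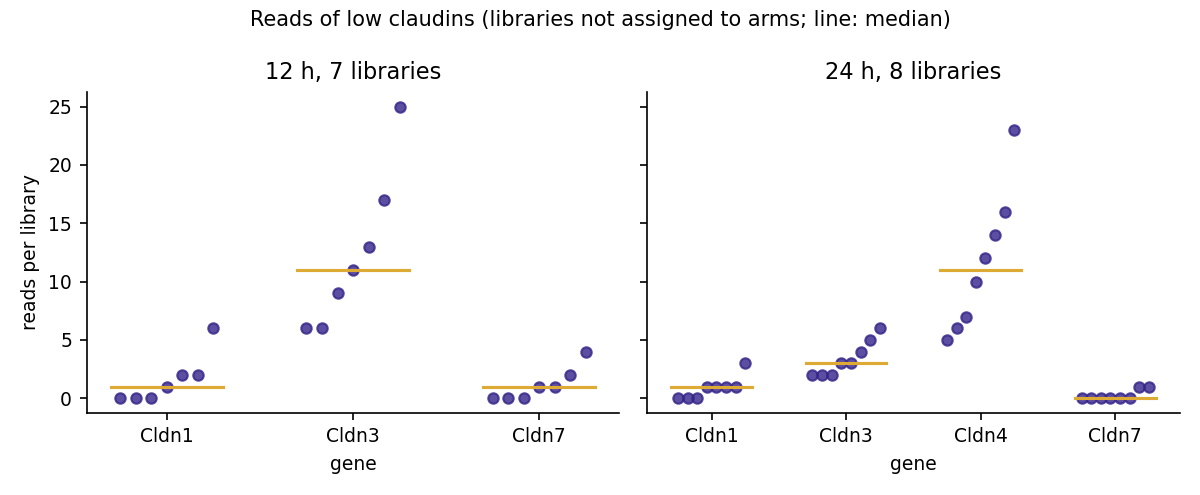
Reads per library of the claudins with a mean under 15 normalised counts at 12 h (7 libraries) and 24 h (8 libraries), ordered within each gene, with the median as a line. Cldn1 and Cldn7 have 0 reads in at least 3 libraries at each time, and Cldn3, and Cldn4 at 24 h, have reads in every library.

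At 12 h, when Klf5 had fallen, none of the claudins passed the threshold. Cldn2, Cldn3, Cldn4, Cldn6 and Cldn12 had an adjusted p in the authors' Wald test (DESeq2), which the authors' table leaves blank for genes of low mean such as Cldn1 and Cldn7, and 0 of the 5 were under 0.05. Of all 13044 genes with an adjusted p at 12 h, 0.943% were called, 0.728% lower and 0.215% higher. At an unadjusted p under 0.05, 1 of the 7 members passed, Cldn6, against 4.9% of all genes. In bulk libraries, a change in the share of cells that make a claudin and a change in RNA per cell cannot be told apart. Among the 13 biliary markers 1 was called at 12 h, the keratin gene Krt7, which fell, with a log2 fold of -0.80 (SE 0.17) in the authors' deposited table.

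Among the high members at 12 h, the log2 fold of Cldn2 in the authors' deposited table was -0.48 (SE 0.26, 95% interval -0.98 to 0.02), with a level of 10975 normalised counts in ethanol and 7880.4 in tamoxifen. Cldn6 had a log2 fold of -0.21 (SE 0.09, interval -0.38 to -0.03) (adjusted p = 0.58, Wald test) in the authors' deposited table. Cldn12 had a log2 fold of 0.24 (SE 0.19, interval -0.14 to 0.61) in the authors' deposited table. The folds of Cldn2 and Cldn6 were thus negative and that of Cldn12 positive, each within reach of the error that the adjustment over all genes allows. The SE of Cldn2 at 12 h was 1.95 times that of genes of similar mean, and that of Cldn6 was 0.667 times.

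Of the low members at 12 h, Cldn4 had a log2 fold of 0.48 (SE 0.25, interval -0.01 to 0.97) and Cldn3 of -0.92 (SE 0.57, interval -2.05 to 0.20) in the authors' deposited table. The folds of Cldn1, -1.85 (SE 1.73), and Cldn7, -1.11 (SE 1.91), in the authors' deposited table have intervals that run from -5.25 to 1.55 and from -4.84 to 2.63. The neighbours Cldn3 and Cldn4 thus had folds of opposite sign at 12 h, neither of them called.

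The reach of the 12 h test was limited. The smallest absolute Wald score of a called gene was 3.50 at 12 h and 2.74 at 24 h. With its SE, Cldn2 would have needed a log2 fold of 0.90 in size to reach that score at 12 h, and 0.17 at 24 h. For Cldn6 the size needed was 0.31 and 0.18, for Cldn12 0.67 and 0.16, and for Cldn4 0.87 and 1.20. A change in Cldn2 of the size measured at 24 h could therefore not have been called at 12 h.

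**Figure D3:**
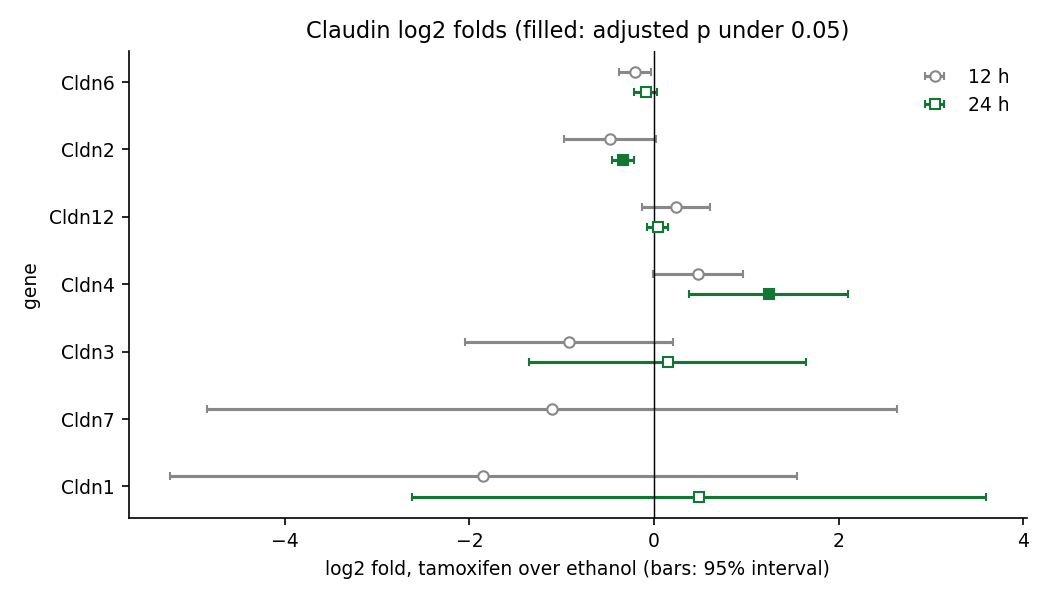
Log2 fold of tamoxifen over ethanol for each claudin at 12 h (circles) and 24 h (squares) with 95% intervals from the authors' SE, filled where the adjusted p is under 0.05. The filled points are Cldn2 (-0.34) and Cldn4 (1.24) at 24 h, and Cldn7 at 24 h, with 2 reads, is not drawn.

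At 24 h Cldn2 fell and Cldn4, a member of low level, rose, while the high members Cldn6 and Cldn12 did not pass the threshold. Cldn2 stood at 5041 normalised counts in ethanol and 3992 in tamoxifen, that is 79.2% of the ethanol level (interval 72.7% to 86.3%). In the authors' deposited table its log2 fold was -0.34 (SE 0.06; adjusted p = 3.84e-06, Wald test). Cldn4 stood at 6.89 normalised counts in ethanol and 16.3 in tamoxifen, a fold of 2.36 (interval 1.30 to 4.28). Its log2 fold in the authors' deposited table was 1.24 (SE 0.44; adjusted p = 0.0400, Wald test). Adjusted p-values were given for 4 members by the authors' deposited table, with 1 fall and 1 rise, and 12.4% of all 11648 genes with an adjusted p were called, 6.52% lower and 5.9% higher. With so few members, no statement about the family as a whole follows from that count. Of 12 biliary markers with an adjusted p at 24 h, 2 fell beside Cldn2, Krt19 at -0.46 (SE 0.09) and the tetraspanin gene Tspan8 at -0.59 (SE 0.08) in the authors' deposited table, 1 rose and 9 did not pass. The summed level of the whole list of 13 was 60840.5 normalised counts in ethanol and 64165 in tamoxifen. Much of it came from Krt18 (20754 in ethanol and 23037 in tamoxifen) and Spp1 (12413 and 16400), neither of them called. The part of the biliary markers in the claudin results was not tested.

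Both calls depend on how the Wald score is read. Against a t distribution with the libraries less 2 as degrees of freedom, in place of the normal distribution, the adjusted p was 0.0776 for Cldn2 and 0.259 for Cldn4, a setting under which 165 genes were called over the whole table in place of 1447. With the adjustment over all genes with a p, the adjusted p of Cldn4 was 0.0542.

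Cldn6 at 24 h had a level of 4332 normalised counts in ethanol and 4068 in tamoxifen. Its log2 fold in the authors' deposited table was -0.09 (SE 0.06, interval -0.22 to 0.04; adjusted p = 0.42, Wald test). Cldn12 at 24 h had 2467 normalised counts in ethanol and 2535 in tamoxifen. Its log2 fold in the authors' deposited table was 0.04 (SE 0.06, interval -0.07 to 0.15; adjusted p = 0.75, Wald test). The intervals bound the level of Cldn6 in tamoxifen between 86.0% and 102.5% of ethanol and that of Cldn12 between 95.1% and 111.0%. The interval of Cldn2 ends at 86.3%, next to the lower end of that of Cldn6, and the difference between members was not tested, since it needs values per library.

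Cldn3 at 24 h, with a mean of 3.38 normalised counts, had a log2 fold of 0.15 (SE 0.76, interval -1.35 to 1.65) in the authors' deposited table. Cldn1 had a log2 fold of 0.49 (SE 1.59, interval -2.62 to 3.60) in the authors' deposited table at 24 h. The deposited fold of Cldn7 at 24 h is not printed, since its 2 reads lie under the floor of 3, and its interval also spans 0. These members had no adjusted p at 24 h, where the lowest mean with one was 7.34 in the authors' deposited table. Their intervals are wide in either direction, so the data do not say whether the RNA of these claudins changed.

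**Figure D4:**
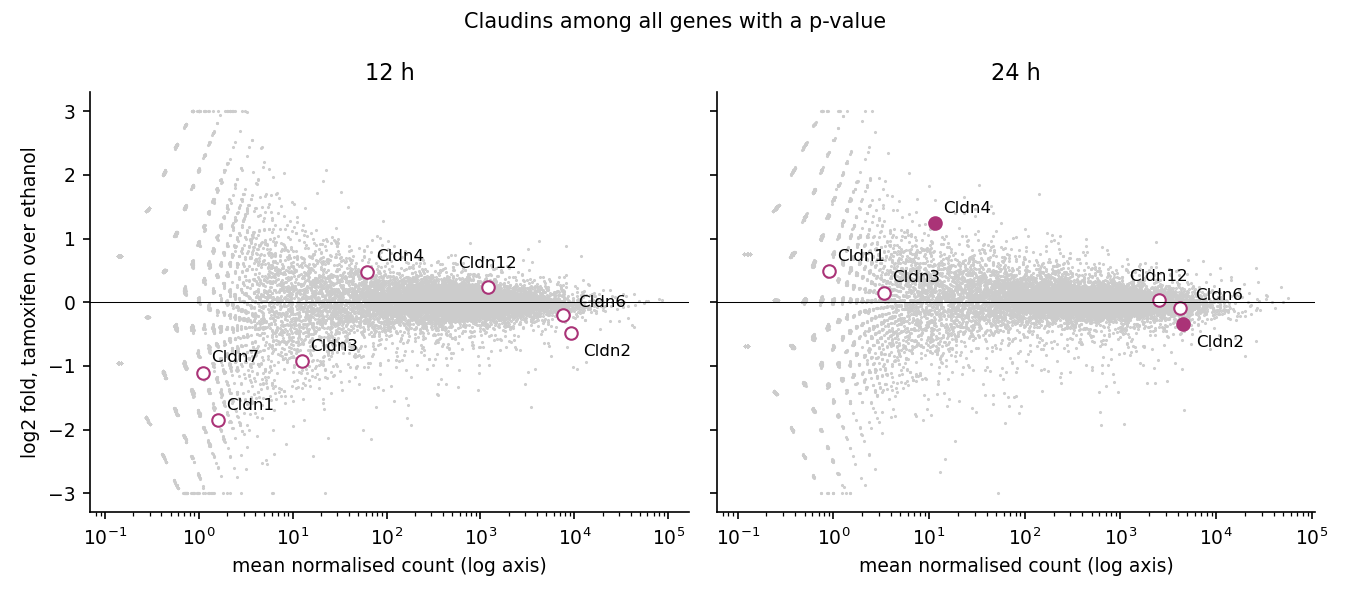
Log2 fold of tamoxifen over ethanol against the mean normalised count (log axis) for all genes with a p-value (grey, drawn at the edge where beyond 3 in size) and for the claudins (circles, filled where the adjusted p is under 0.05), at 12 h and 24 h. The filled points at 24 h are Cldn4, at a mean of 11.6 and a log2 fold of 1.24, and Cldn2, at a mean of 4517 and a log2 fold of -0.34. Cldn7 at 24 h, with 2 reads, is not drawn.

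The makeup of the claudin RNA was then set side by side in the arms. In ethanol the level per kb of Cldn2 was 0.690 times that of Cldn6 at 12 h and 0.602 times at 24 h. In tamoxifen these ratios of levels per kb were 0.572 and 0.508. The summed level per kb of the members in tamoxifen was 81.8% of that in ethanol at 12 h and 90.3% at 24 h. Cldn4 held 0.0821% of the summed level per kb in ethanol at 24 h and 0.215% in tamoxifen, so its rise hardly moved the sum. No error can be given for these ratios and sums without values per library.

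The response to tamoxifen was compared between the times for each member. None of the 7 differences passed (Wald test of the difference of log2 folds, Benjamini-Hochberg over 14981 genes), and 0.0134% of all genes were called. At an unadjusted p under 0.05 the members counted 0, against 1.64% of all genes. The difference, 24 h minus 12 h, was 0.14 for Cldn2 (SE 0.26, interval -0.38 to 0.66) and 0.76 for Cldn4 (SE 0.50, interval -0.23 to 1.75). For Cldn6 it was 0.12 (SE 0.11) and for Cldn12 -0.20 (SE 0.20). Cldn2 and Cldn6 had negative folds and Cldn4 and Cldn12 positive folds at both times. Of these, the intervals of Cldn12 span 0 at both times, those of Cldn2 and Cldn4 at 12 h and that of Cldn6 at 24 h. Cldn1, Cldn3 and Cldn7 had negative folds at 12 h, positive ones at 24 h and intervals that span 0 at both times.

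The share of all counts taken by the members also differed between the times. Scaled to the total of each table (as CPM), Cldn12 had 86.0 at 12 h and 211 at 24 h, a ratio of 2.45. Cldn2 went the other way, with 663 and 381 CPM, as did Cldn6 with 547 and 355 and Cldn4 with 4.49 and 0.978. The tables were normalised separately and the times hold different libraries, so time and any batch cannot be told apart, and these levels were not tested.

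The genes with log2 folds nearest to those of each called claudin were identified over the 2 comparisons, among genes with means within 4 times its own. For Cldn2, of 1242 such genes, the nearest were Colgalt1, a collagen galactosyltransferase gene (log2 folds -0.46 and -0.42), Phgdh, the first enzyme of serine synthesis from glycolysis (-0.39 and -0.36), and Nbeal2 (-0.49 and -0.24) in the authors' deposited tables. Their Euclidean distances from Cldn2 were 0.0859, 0.0919 and 0.0942 on the log2 scale. For Cldn4, of 1230 such genes, the nearest were Zfp934 (0.55 and 1.21), Arhgap31, a GTPase-activating protein gene (0.45 and 1.12), and the melanocortin receptor gene Mc4r (0.46 and 1.40) in the authors' deposited tables. Their distances from Cldn4 were 0.0736, 0.118 and 0.160 on the same scale. A pair of folds is a thin measure of likeness, and the distances are smaller than the SEs of Cldn2 at 12 h and of Cldn4 at either time.

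The claudins act together with other tight junction proteins. Beside them, 4 lists were counted: tight junction membrane proteins, scaffold and polarity proteins, claudin partners and proteases, and transcription and splicing factors. Of 14 other tight junction membrane proteins, 11 had an adjusted p at 24 h, of which 3 fell, 1 rose and 7 did not pass. In the authors' deposited table the falls were Jam2, a junctional adhesion molecule gene, at -1.21 (SE 0.24), Ildr2, an angulin-family gene, at -0.85 (SE 0.08), and F11r, which encodes JAM-A, at -0.11 (SE 0.03). The rise in the authors' deposited table was Cxadr, an adhesion molecule known as the coxsackievirus and adenovirus receptor, at 0.16 (SE 0.05). Jam2 was also the 1 called gene of this list at 12 h, when 0.943% of all genes were called, at -1.33 (SE 0.26) in the authors' deposited table. Jam2 and Ildr2 had larger falls than Cldn2, and occludin (Ocln), at -0.30 (SE 0.21) in the authors' deposited table at 24 h, did not pass.

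Of 26 scaffold and polarity proteins, all had an adjusted p at 24 h, 4 fell, 2 rose and 20 did not pass in the authors' deposited table. In the authors' deposited table those that fell were the ZO-1 gene Tjp1 at -0.28 (SE 0.05), the paracingulin gene Cgnl1 at -0.33 (SE 0.04), the membrane-associated guanylate kinase gene Magi3 at -0.34 (SE 0.06) and Tjap1 at -0.31 (SE 0.06). Arhgef2, a guanine nucleotide exchange factor held at the junction by cingulin, rose in the authors' deposited table by 0.22 (SE 0.04) and the angiomotin-like gene Amotl2 by 0.13 (SE 0.05). The falls of these scaffold genes are close in size to that of Cldn2. At 12 h 0 of the 26 were called by the authors' Wald test and 2 had an unadjusted p under 0.05, against 0.943% and 4.9% of all genes.

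Of 17 claudin partners, proteases and kinases, 14 had an adjusted p at 24 h, of which 3 rose, none fell and 11 did not pass in the authors' deposited table. In the authors' deposited table they were the tetraspanin gene Cd81 at 0.23 (SE 0.04), the myosin light chain kinase gene Mylk at 0.53 (SE 0.19) and the kinase gene Rock1 at 0.56 (SE 0.12), the last 2 known for the actomyosin tension on junctions. At 12 h 0 of 14 were called by the authors' Wald test and 2 had an unadjusted p under 0.05, against 0.943% and 4.9% of all genes. Of 25 transcription factors and splicing factors known to act on claudin or epithelial genes, Klf5 among them, 18 had an adjusted p at 24 h, of which 2 fell, 3 rose and 13 did not pass in the authors' deposited table. The fall beside Klf5 in the authors' deposited table was the splicing factor gene Esrp2, at -0.30 (SE 0.07). Among the factors that rose was Tfcp2l1, at 0.60 (SE 0.18) in the authors' deposited table. Of factors reported to act on Cldn2 in gut cells, Cdx2 stood at 0.21 (SE 0.09) and Gata4 at -0.19 (SE 0.16), and neither was called in the authors' deposited table at 24 h. Klf5 was the 1 factor called at 12 h, when 6 of the 22 factors with a p, Klf5 among them, had an unadjusted p under 0.05. Over all genes at 12 h, 0.943% were called and 4.9% had an unadjusted p under 0.05.

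The shares called at 24 h were 36.4% of the membrane proteins, 23.1% of the scaffolds, 21.4% of the partners and 27.8% of the factors, against 12.4% of all genes. The median log2 folds of these lists were 0.16, 0.00, 0.10 and 0.09, against 0.00 over all genes with an adjusted p. The lists were chosen with earlier results of these data known, so the shares are not independent of the outcome. The share of the factors also counts Klf5, the targeted gene. The lists differ from all genes in level as well, and the shares were not tested.

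**Figure D5:**
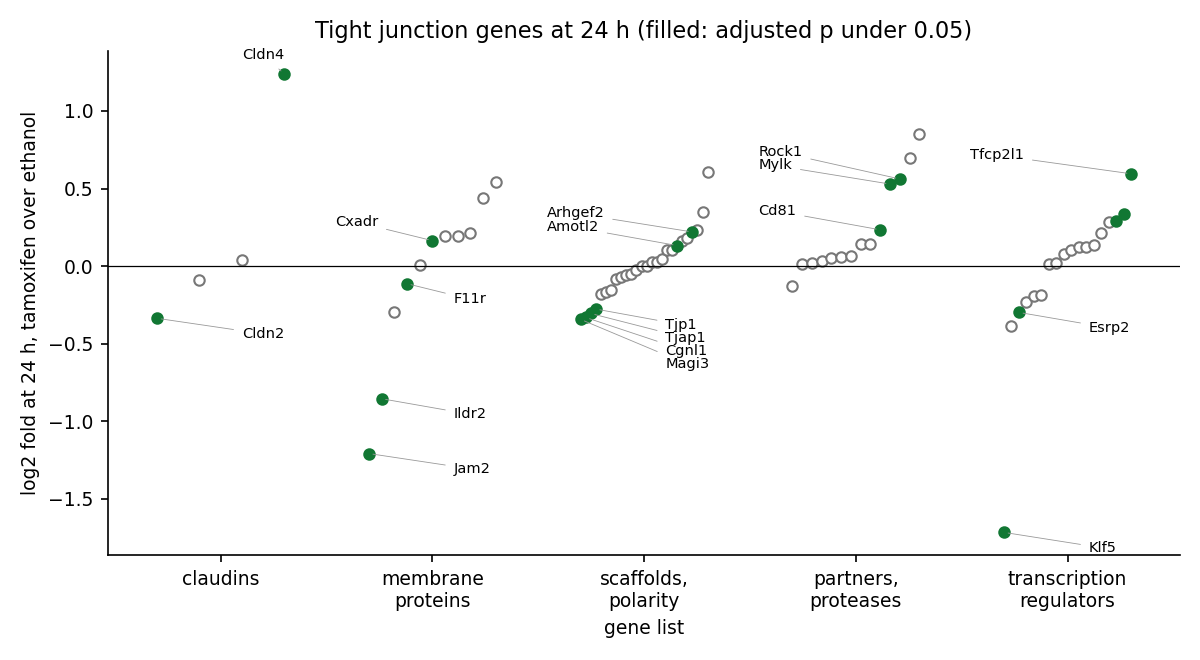
Log2 fold of tamoxifen over ethanol at 24 h for the claudins and 4 lists of junction proteins, claudin partners and factors. Each point is 1 gene with an adjusted p, filled where it is under 0.05 and then labelled if named in the text. Falls and rises stand side by side in the claudins, the membrane proteins, the scaffolds and the factors, from Klf5 at -1.72 to Cldn4 at 1.24.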

How the data were processed

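The 15 single-end libraries were made from total RNA using Illumina's TruSeq v2 kit, per the labels' protocols. HISAT2, DESeq2 and mm10 are named in the submitters' processing notes, and the sources used here give neither the counting tool nor the annotation. Samples were grouped by title. The 12 h ethanol libraries are numbered 1, 3 and 4, and any other was not analysed here. Per the file headers, the authors' deposited tables hold the mean normalised count (a signal averaged over the libraries of a time), the log2 fold and its SE (standard error), a Wald score, and p-values before and after adjustment. Genes of low mean have no adjusted p.

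Genes with 1 read have 7 lowest means at 12 h, 3 with negative and 4 with positive folds, the numbers of ethanol and tamoxifen libraries; at 24 h the split of 4 and 4 does not check the direction, which was taken to be the same. These lowest means were used to find the whole reads per library of members with a mean under 15, at a tolerance of 1e-12, with 1 matching set each. The authors' size factors were 0.955 to 1.05 at 12 h and 0.934 to 1.07 at 24 h. Depth intervals and the floor of 3 reads cover counting error only, and the 95% intervals are 1.96 SEs wide on each side.

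The threshold for a call was an adjusted p of 0.05. Levels per arm were solved from the mean, the fold and the numbers of libraries. Levels per kb use the union of GENCODE M21 exons on GRCm38, the assembly that mm10 names. For the contrast of times, the 24 h minus 12 h difference in log2 fold was divided by the combined SE, a test tried on simulated data first. Each SE was set against the median SE in a window of 201 genes ranked by mean. The designs assumed that tables of comparisons might be the only files, which was so. Symbols absent from the tables were matched through RefSeq synonyms (Ybx3 for Csda and Tmem114 for Cldn26). Named genes are the members, Klf5, called genes of the lists, the 3 highest claudins of the list of others and the 3 nearest genes per called claudin; Ocln, Cdx2, Gata4, Cldn34c1 and the cell type markers singled out were added after their values were seen, and some called genes of the lists are counted but not reported by name here. The members and lists were chosen with earlier results of these data known. Computations ran in Python 3.11.15 (scipy 1.17.1, numpy 2.4.6, pandas 2.3.3), with figures from matplotlib 3.10.9.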

Additional observations from a re-analysis of the deposited data

How the results depend on the processing

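No paired analysis was possible because the tables hold no values per library, and leaving out a replicate was not possible for the same reason. The count of 0 claudins called at 12 h was the same under all 6 alternatives tried, which were the adjustment over all genes, minimum means of 10 and 50, thresholds of 0.01 and 0.1, and the t distribution for the Wald score. Of these, the t distribution left 0 calls over all genes at 12 h and so does not bear on the claudins there. A threshold of 0.01 cannot add to a count of 0 and does not bear on it either. The lowest adjusted p of a member (Wald test), that of Cldn6, was 0.58 in the main setting. It was 0.70 with the adjustment over all genes, and 0.54 and 0.55 with minimum means of 10 and 50. Over all genes, 79 were called at 12 h with a threshold of 0.01 in place of 123, and at 24 h 854 with that threshold and 165 with the t distribution in place of 1447. The count of 2 at 24 h was the same with a minimum mean of 10 and a threshold of 0.1. It was 1, Cldn2, with the adjustment over all genes, with a minimum mean of 50, which leaves out Cldn4, and with a threshold of 0.01, and it was 0 with the t distribution. The count of 0 claudins that differed between times was the same under both of its alternatives. Over all genes, 2 were called among genes with an adjusted p at both times, and 0 with the t distribution. With so few calls possible, neither alternative bears on the claudins. Folds shrunken towards 0 kept their sign in all members, with 0.22 for Cldn4 at 24 h in place of 1.24 and, at 12 h, -0.05 for Cldn2 in place of -0.48, 0.06 for Cldn4 in place of 0.48 and -0.11 for Cldn6 in place of -0.21; the pull grows with the SE by construction. With the longest transcript as length, the share of Cldn2 in the summed level was 37.5% in place of 36.9% at 12 h and 31.2% in place of 30.9% at 24 h. The order of the members per kb did not change. Depth limits Cldn1, Cldn3 and Cldn7, whose intervals are wide.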
